A study of Homo sapiens with 12 samples.

Results

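EGR1, EGR2, EGR3, KLF2, KLF4, KLF5, KLF6, IER2, NR4A1 and SRF are 10 human genes of the immediate early response and of the transcription factors around it, and their transcripts were followed in pancreatic cancer cells after knockdown of 3 genes of citrate handling. The genes were taken by name, in a choice made with earlier results of these data known, as the rows of the count table whose Ensembl identifier carries one of these 10 symbols. They are 10 of the 70116 genes in the table, and 9 of them were among the 16197 genes with enough counts to be tested, EGR2 being the exception. The cells were MiaPaCa-2, an established human pancreatic cancer line, and every library came from this 1 line. Cells received a small interfering RNA (siRNA), a short duplex that directs the degradation of a matching transcript, in 4 groups of 3 libraries each. The groups are a control siRNA (siControl) and siRNAs against SLC25A1, the carrier that exports citrate from mitochondria (siSLC25A1), against ACLY, the enzyme that cleaves cytosolic citrate to acetyl-CoA (siACLY), and against ACO1, the cytosolic aconitase (siACO1). How many different siRNAs were used against a target, their sequences, the culture condition and the time between transfection and harvest are not given in the labels. They also do not say whether the 3 replicates were separate cultures, so the p-values measure the spread between these libraries, which may be technical.

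Immediate early genes are transcribed within minutes of a stimulus such as a growth factor, from promoters that need no new protein. Growth factor signals reach many of them through the MAP kinase cascade, ETS-family cofactors and serum response factor (SRF), which binds CArG boxes, while cyclic AMP and stress signals act through CREB-family proteins at CRE motifs. EGR1, EGR2 and EGR3 are zinc finger factors that bind GC-rich sites and are held in check by the NAB corepressors, NR4A1 is an orphan nuclear receptor, IER2 is a small nuclear protein, and the KLF factors are zinc finger proteins related to SP1 that bind GC-rich and CACCC sites.

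The promoter windows of the members differed in which of these elements they held. RefSeq promoter windows of 300 bases (250 before a transcription start and 50 from it, GRCh38.p14) were searched for 9 of the 10 members, with 14 windows in all. The promoter of EGR3 was not searched. The stretches below are the 150 bases before the start for EGR1 and SRF, which hold CArG boxes, for the 1 EGR2 start that holds one, and for the upstream start of NR4A1, the member with the largest fold change, which holds none. They are written 5′ to 3′ on the gene's strand, no exon of GENCODE 29 overlaps them, and capitals mark a CArG box, the CRE core TGACG, the ETS core CCGGAA or an EGR site (GCGGGGGCG or GCGTGGGCG), on either strand.
EGR1, chr5:138465329-138465478, plus strand: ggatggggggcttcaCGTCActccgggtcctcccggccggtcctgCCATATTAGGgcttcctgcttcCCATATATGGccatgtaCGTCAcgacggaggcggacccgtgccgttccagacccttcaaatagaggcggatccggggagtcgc
SRF, chr6:43171119-43171268, plus strand: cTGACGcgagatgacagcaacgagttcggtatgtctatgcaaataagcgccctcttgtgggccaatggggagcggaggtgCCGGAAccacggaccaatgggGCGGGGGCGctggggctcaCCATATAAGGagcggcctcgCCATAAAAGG
EGR2, chr10:62816367-62816516, minus strand: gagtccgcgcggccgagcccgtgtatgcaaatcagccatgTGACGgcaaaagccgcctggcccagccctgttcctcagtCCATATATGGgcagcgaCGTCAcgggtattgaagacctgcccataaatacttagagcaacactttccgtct
NR4A1, chr12:52022682-52022831, plus strand: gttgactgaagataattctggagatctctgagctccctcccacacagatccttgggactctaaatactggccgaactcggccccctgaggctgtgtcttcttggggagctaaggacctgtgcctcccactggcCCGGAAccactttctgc
EGR1 had CArG boxes whose first base lay at -105 and -83 from the start, and CRE cores at -135 and -66. SRF, the factor that binds such boxes, had CArG boxes at -30 and -10 in its own promoter, with an EGR site at -49, an ETS core at -70 and a CRE core at -149 upstream of them. The EGR2 stretch had 1 CArG box at -71 between CRE cores at -110 and -54. The upstream NR4A1 stretch had an ETS core at -17, and neither of the 2 NR4A1 windows held a CArG box or a CRE core. GENCODE 29 lists 22 transcripts of NR4A1, and which of its starts are used in these cells was not tested.

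**Figure D1:**
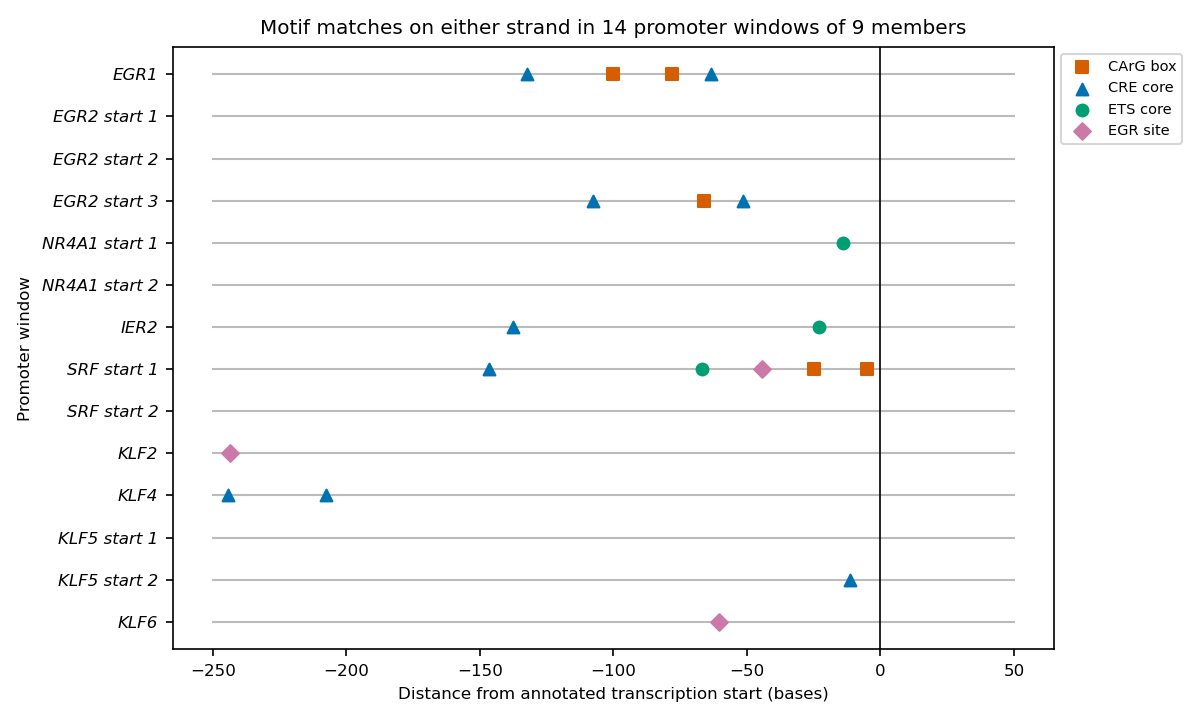
Motif matches in the 14 promoter windows of 9 members, by distance in bases from the annotated transcription start (vertical line) on the x axis, 1 window per row; symbols mark the centre of each match on either strand. CArG boxes appear in 1 window each of EGR1, EGR2 and SRF, and the EGR sites in KLF2, KLF6 and SRF.

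A CArG box was present in 3 of the 14 windows (EGR1, EGR2 and SRF) and in 1.29% of all 35116 promoter windows outside chromosome 8. It was present in 0 of 40 windows of other immediate early genes. These 40 are windows outside chromosome 8, not the 40 tested genes of that list. Only these windows were searched, so boxes farther from the start are not counted, and the genes may have them there. The CRE core was present in 6 of 14 (EGR1, EGR2, IER2, KLF4, KLF5 and SRF), against 24.6% of all windows and 22 of the 40. The ETS core was found in 3 of 14 (IER2, NR4A1 and SRF), against 17.2% of all windows and 6 of the 40. The EGR site was found in 3 of 14 (KLF2, KLF6 and SRF), against 5.77% of all windows and 5 of the 40. The full CRE, TGACGTCA, which contains the core, was in 0 of 14, in 1.85% of all windows and in 5 of the 40. Both EGR1, which rose in each knockdown, and SRF, which was not called higher in any, carried CArG boxes. Whether these boxes act in these cells was not tested.

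Library totals ran from 24159424 to 43792811 counts. Each target fell in its own knockdown, with a log2 fold change of -3.51 for SLC25A1, -3.79 for ACLY and -4.74 for ACO1. siACO1 replicate 3 stood apart from its 2 replicates, with a chi-square per degree of freedom of 7.64 and 8.09 against them, where the other 10 replicate pairs had values from 1.97 to 4.06, and the differences of siACO1 from siControl are therefore also given without it. Of the markers of the line and of epithelium, KRT8, KRT18, KRT19 and VIM were expressed, while EPCAM and CDH1 had at most 2 counts in a library. The sum over these 6 markers was 7226 to 7270.1 CPM (counts scaled to library size by TMM) in siControl, 6945 to 7347 in siSLC25A1, 8094 to 8735 in siACLY and 5542 to 6021 in siACO1, so that siSLC25A1 spanned the controls, siACLY lay above them and siACO1 below. Within it KRT8, KRT18 and KRT19 fell by 0.83, 0.78 and 0.76 on the log2 scale in siACO1, and VIM, at 0.02, was not called. In siSLC25A1 KRT8 and KRT18 fell by 0.18 and 0.20, KRT19 rose by 0.45, and VIM, at 0.11, was not called. In siACLY VIM rose by 0.36, from a mean of 3561 to 4558 CPM, and KRT19 by 0.67, from 88.5 to 141 CPM. KRT8 (0.08) and KRT18 (-0.01) were not called there. The part of these differences in the results below was not tested. Markers of T cells and endocrine cells were at 0 in every library, those of macrophages, endothelium and fibroblasts each summed to at most 1.25 CPM, and those of pancreatic acinar cells to at most 4.99 CPM, with PRSS1 and CPA1 at 0. Some genes that cultured cells generally express had almost no counts in the table, such as ACTG1 with a mean of 0.331 CPM in siControl beside 9038 for ACTB, so a count near 0 here does not by itself show that a gene is silent. In such bulk samples, fewer expressing cells and less RNA per cell cannot be told apart.

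EGR1, EGR3 and, at a low level, NR4A1 were the members with the largest differences from siControl, and their levels were ordered siControl, siSLC25A1, siACLY, siACO1 from lowest to highest. KLF6 and IER2 also rose in all 3 knockdowns, by less. KLF2 and KLF4 rose in siSLC25A1 and siACLY, but KLF4 fell in siACO1 and KLF2 did not pass the test there. In siSLC25A1, 6 of the 9 tested members were called at an adjusted p under 0.05 in edgeR's quasi-likelihood test, where 19.6% of all tested genes were called; the 6 were higher, against 10.3% of all genes called higher and 9.27% called lower. In siACLY, 8 of 9 were called (36.7% of all genes), 7 higher and 1 lower, where 18.4% and 18.3% of all genes were called in these directions. In siACO1, 7 of 9 were called (37.1% of all genes), 5 higher and 2 lower, where 17.8% and 19.3% of all genes were. Without siACO1 replicate 3, 8 of 9 were called in siACO1, the added call being SRF. The 9 include NR4A1, which passed the filter on low counts through the knockdown groups and not through siControl.

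Changes of at least 2-fold were fewer. They were seen in 2 members in siSLC25A1 (EGR1 and EGR3) and in 3 each in siACLY and siACO1 (EGR1, EGR3 and NR4A1), where 1.05%, 3.64% and 3.67% of all genes were called with at least that change. For NR4A1, which passed the filter only through knockdown groups, this is a description. The median log2 fold change over the 9 members was 0.41, 0.51 and 0.17 in siSLC25A1, siACLY and siACO1, beside -0.0045, 0.0077 and 0.0063 over all tested genes. The 3 comparisons share their controls and so are not independent of each other. Per kilobase of exon, the siControl level was highest for KLF2 (48.4 CPM per kb), followed by KLF6 (37.0), SRF (31.3), IER2 (25.9) and EGR1 (16.7). KLF4 had 5.57 CPM per kb, and EGR3, KLF5, NR4A1 and EGR2 were below 1, at 0.639, 0.497, 0.0563 and 0.013.

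**Figure D2:**
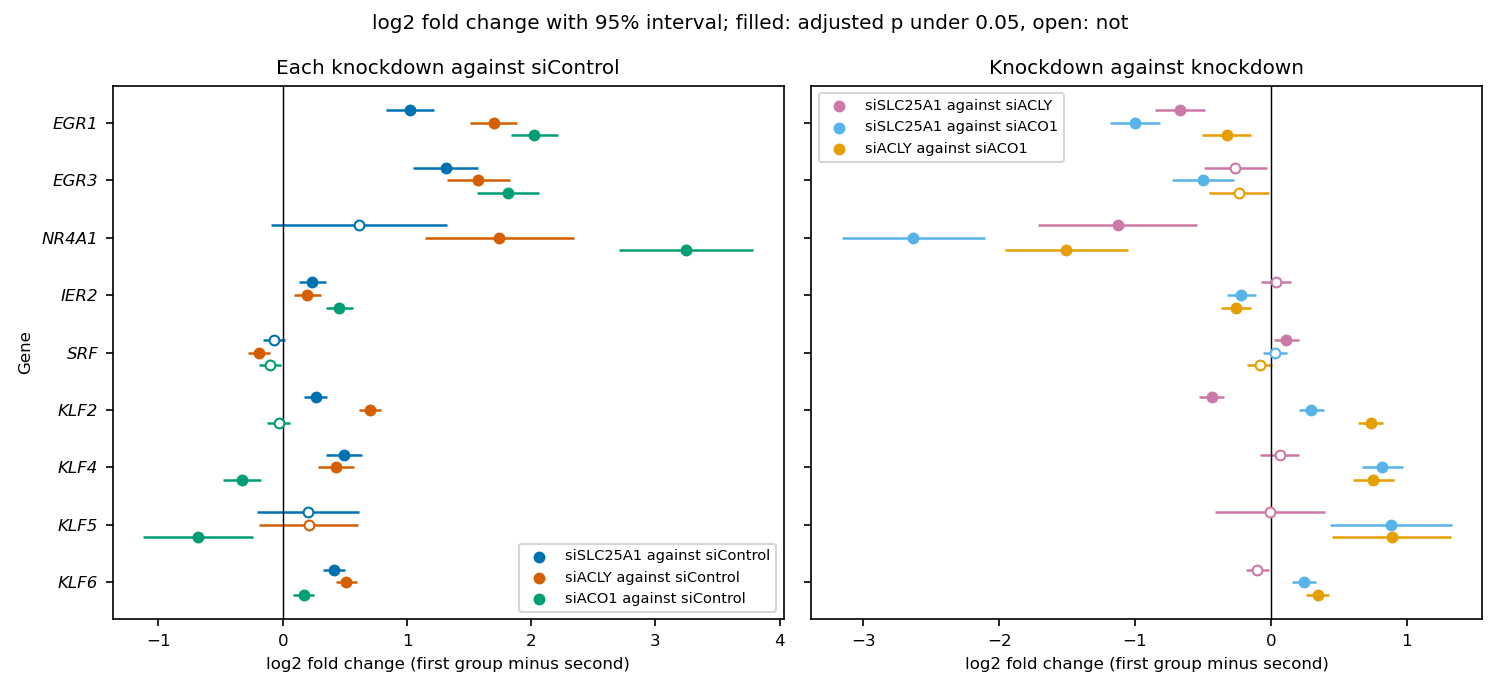
log2 fold change (x axis) of the 9 tested members (rows) with its 95% interval, each knockdown against siControl at the left and knockdown against knockdown at the right; filled points have an adjusted p under 0.05 and open points do not. EGR1, EGR3 and NR4A1 lie farthest to the right against siControl, up to 3.25 for NR4A1 in siACO1, and KLF4 and KLF5 lie left of 0 in siACO1.

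EGR1 (ENSG00000120738.8; chromosome 5, 138465490 to 138469315, plus strand, 2 exons in GENCODE 29 on GRCh38), the best studied of the serum-induced zinc finger factors, rose in each knockdown. Its level was 53.9, 58.9 and 44.2 CPM in the siControl libraries and 103, 116 and 102 in siSLC25A1. It was 167, 180.3 and 164 CPM in siACLY and 215, 224 and 203 in siACO1. The 4 groups did not overlap. In siSLC25A1, siACLY and siACO1, 37.1%, 50.5% and 46.3% of all tested genes also did not overlap siControl. Between knockdowns these shares ran from 46.5% to 49%. The same shares apply to the members below. The mean rose from 52.3 ± 7.50 CPM (SD, n = 3) to 107 ± 7.91, 170.4 ± 8.71 and 214 ± 10.4, or to 204%, 326% and 408% of siControl. On the log2 scale EGR1 rose by 1.03 (SE 0.09, adjusted p = 2.92e-06) in siSLC25A1, 1.70 (SE 0.09, adjusted p = 6.95e-09) in siACLY and 2.02 (SE 0.09, adjusted p = 9.72e-10) in siACO1, and by 2.06 in siACO1 without replicate 3. Each step of the order was larger than the spread: EGR1 was lower in siSLC25A1 than in siACLY by a log2 difference of -0.67 (adjusted p = 4.08e-05), and lower in siACLY than in siACO1 by -0.33 (adjusted p = 0.00604).

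EGR3 (ENSG00000179388.9; chromosome 8, 22687659 to 22693302, minus strand), a close relative of EGR1 that binds the same sites, had a similar order at a far lower level. It stood at 2.82, 3.16 and 3.32 CPM in siControl, from 93 to 114 counts, and at 7.74, 8.85 and 6.43 CPM in siSLC25A1. The siACLY libraries had 9.26, 9.78 and 8.60 CPM and the siACO1 libraries 11.0, 10.2 and 11.4. Every knockdown library was above every control. EGR3 rose by 1.31 (SE 0.13, adjusted p = 8.13e-09) in siSLC25A1, 1.57 (SE 0.12, adjusted p = 3.72e-11) in siACLY and 1.81 (SE 0.12, adjusted p = 1.38e-12) in siACO1, or 1.77 there without replicate 3. The ends of the order differed, siSLC25A1 against siACO1 having a log2 difference of -0.50 (adjusted p = 0.000579), but neighbours did not pass the test: siSLC25A1 against siACLY gave -0.26 (95% interval -0.49 to -0.03, adjusted p = 0.0728) and siACLY against siACO1 -0.24 (95% interval -0.46 to -0.02, adjusted p = 0.0789).

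EGR2 (ENSG00000122877.18; chromosome 10, 62811996 to 62919900, minus strand), known for its part in myelination and in lymphocytes, was near the limit of detection. It had 1, 4 and 0 counts in siControl, 1, 1 and 3 in siSLC25A1, 12, 6 and 2 in siACLY and 4, 8 and 13 in siACO1. The siACO1 counts were at or above those of siControl, with a tie at 4, and the counts were too low for a test at the filter used. When the filter was left out, EGR2 in siACO1 had an adjusted p = 0.0218 in edgeR (log2 fold change 2.43, SE 0.83, a value that depends on the prior count), and in siACLY an adjusted p = 0.113. EGR4, the remaining member of the EGR family, was in the list of other immediate early genes and is named here after its values were seen. Its mean was 0.162 CPM in siControl, 0.139 in siSLC25A1, 0.625 in siACLY and 0.484 in siACO1. As it passed the filter through the groups where it is high, these levels are given as a description.

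NR4A1 (ENSG00000123358.20; chromosome 12, 52022832 to 52059507, plus strand), the nuclear receptor also called NUR77, had the largest relative change of the 9 tested members, from a very low level. Its counts were 15, 19 and 8 in siControl, 20, 11 and 19 in siSLC25A1, 77, 27 and 35 in siACLY and 112, 130 and 104 in siACO1. Scaled for library size these were 0.419, 0.527 and 0.286 CPM in siControl and 4.51, 4.23 and 3.34 in siACO1. The siSLC25A1 libraries, at 0.698, 0.443 and 0.788 CPM, overlapped the controls, whereas the siACLY libraries, at 1.73, 1.05 and 1.35, did not. NR4A1 rose 9.50-fold in siACO1 (log2 fold change 3.25, SE 0.26, adjusted p = 5.64e-11) and by 1.74 in siACLY (SE 0.29, adjusted p = 2.25e-05). In siSLC25A1 its log2 fold change was 0.62 (95% interval -0.09 to 1.32, adjusted p = 0.228). The 3 knockdowns differed from each other, by -1.13 for siSLC25A1 against siACLY (adjusted p = 0.00259) and by -1.51 for siACLY against siACO1 (adjusted p = 1.94e-06). Without replicate 3 of siACO1 the rise there was 3.37. NR4A1 passed the filter on low counts through the knockdown groups and not through siControl, so its differences from siControl are given as a description. Of its exon bases, 10.3% overlap another gene.

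IER2 (ENSG00000160888.7; chromosome 19, 13150415 to 13154908, plus strand), an immediate early nuclear protein, rose in each knockdown, but by at most 1.37-fold. The controls had 78.8, 81.5 and 78.7 CPM and the siSLC25A1 libraries 92.8, 96.8 and 92.1. In siACLY it had 89.3, 92.4 and 92.8 CPM and in siACO1 105, 101 and 122. Every knockdown library exceeded the controls, and siACO1 replicate 3 was the highest of all. IER2 rose by 0.24 in siSLC25A1 (adjusted p = 0.00164), 0.20 in siACLY (adjusted p = 0.00387) and 0.45 in siACO1 (adjusted p = 5.75e-08), the last becoming 0.36 without replicate 3. siACO1 was above both other knockdowns (siACLY against siACO1 -0.26, adjusted p = 0.000216), while siSLC25A1 and siACLY did not differ by the test (0.04, 95% interval -0.07 to 0.15, adjusted p = 0.623). The IER2 value is uncertain, because 30.8% of its exon bases overlap an antisense gene and the sources used here do not say whether counting used the strand.

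**Figure D3:**
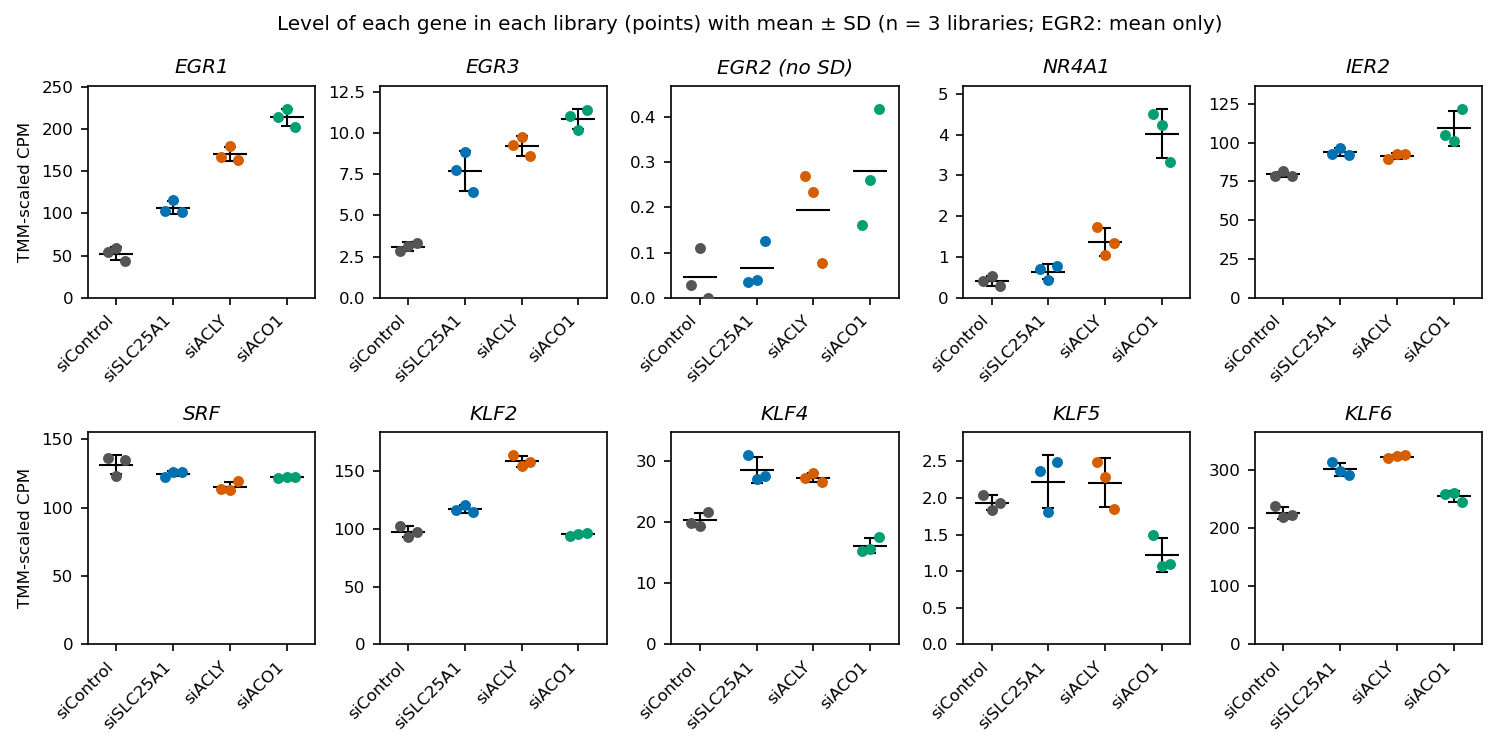
TMM-scaled CPM (y axis, linear from 0, own scale per panel) of the 10 members in each of the 12 libraries (points) with the mean and SD of 3 libraries per group (black; mean only for EGR2). EGR1 and EGR3 step up from siControl to siACO1, KLF2 is highest in siACLY at a mean of 159 CPM, and KLF4 and KLF5 are lowest in siACO1.

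Among the KLF factors the pattern was another. KLF2 (ENSG00000127528.6; chromosome 19, 16324817 to 16327874, plus strand), best known in endothelium and T cells, peaked in siACLY. Its libraries had 103, 93.0 and 97.2 CPM in siControl, 116, 121 and 115 in siSLC25A1, 164, 154 and 158 in siACLY, and 94.1, 95.5 and 96.7 in siACO1. The siACO1 libraries lay within the range of the controls and the other knockdowns above it. KLF2 rose by 0.26 in siSLC25A1 (SE 0.04, adjusted p = 5.81e-05) and by 0.70 in siACLY (SE 0.04, adjusted p = 3.64e-13), and its log2 fold change in siACO1 was -0.03 (95% interval -0.12 to 0.06, adjusted p = 0.601), or -0.05 without replicate 3. It was higher in siACLY than in siACO1 by 0.73 (adjusted p = 7.26e-14), the order being siACO1 and siControl, then siSLC25A1, then siACLY.

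KLF4 (ENSG00000136826.15; chromosome 9, 107484852 to 107490482, minus strand), a factor of epithelial differentiation and one of the pluripotency factors, moved in opposite directions. It had 19.96, 19.4 and 21.7 CPM in siControl, 31.004, 27.1 and 27.6 in siSLC25A1, 27.3, 28.0 and 26.6 in siACLY and 15.3, 15.6 and 17.6 in siACO1. The siACO1 libraries lay below the lowest control, and those of the other knockdowns above the highest. KLF4 rose by 0.49 in siSLC25A1 (SE 0.07, adjusted p = 7e-06) and 0.43 in siACLY (SE 0.07, adjusted p = 1.91e-05), and fell by 0.33 in siACO1 (SE 0.07, adjusted p = 0.000855), or by 0.40 without replicate 3. The difference between siSLC25A1 and siACO1 was itself 0.82 (adjusted p = 3.09e-10), and that between siACLY and siACO1 0.75 (adjusted p = 1.43e-09), while siSLC25A1 and siACLY differed by 0.07 (95% interval -0.08 to 0.21, adjusted p = 0.508).

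KLF5 (ENSG00000102554.14; chromosome 13, 73054976 to 73077542, plus strand), an epithelial growth-associated factor, was scarce, with 33 to 111 counts per library. It ranged from 1.83 to 2.04 CPM in siControl, 1.81 to 2.49 in siSLC25A1, 1.85 to 2.50 in siACLY and 1.07 to 1.49 in siACO1, whose libraries were the 3 lowest of the 12. KLF5 fell by 0.68 in siACO1 (SE 0.22, adjusted p = 0.0132). This call was lost without siACO1 replicate 2 (log2 fold change -0.60, adjusted p = 0.06, over a range of 0.00791 to 0.06 in the 19 alternatives), and kept without replicate 3 (-0.61, adjusted p = 0.0466). The differences of siSLC25A1 and siACLY from siACO1 were 0.88 (adjusted p = 0.00153) and 0.89 (adjusted p = 0.00113). Against siControl the log2 fold change was 0.20 in siSLC25A1 (95% interval -0.21 to 0.61) and 0.21 in siACLY (95% interval -0.19 to 0.61), neither of which passed.

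KLF6 (ENSG00000067082.15; chromosome 10, 3775996 to 3785281, minus strand), a widely expressed factor, had the highest CPM of the 10 members and rose in all 3 knockdowns. Its libraries had 238, 220.1 and 222 CPM in siControl and 314, 299 and 293 in siSLC25A1. In siACLY they had 322, 324 and 326 CPM, and in siACO1 260.1, 261 and 245. The groups did not overlap, siACO1 lying between the controls and the other knockdowns. KLF6 rose by 0.41 in siSLC25A1 (SE 0.04, adjusted p = 1.43e-08), 0.51 in siACLY (SE 0.04, adjusted p = 6.79e-11) and 0.17 in siACO1 (SE 0.04, adjusted p = 0.00174), or 0.19 there without replicate 3. siACLY was above siACO1 by 0.34 (adjusted p = 7.36e-08). siSLC25A1 against siACLY gave -0.10 (adjusted p = 0.0596), a difference that was called in 6 of 19 alternatives, where its adjusted p ranged from 0.00988 to 0.263.

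SRF (ENSG00000112658.8; chromosome 6, 43171299 to 43181507, plus strand, 7 exons), the factor through which serum acts on EGR1 and on genes of the actin cytoskeleton, had log2 fold changes between -0.19 and -0.07 against siControl. Its level was 136, 123 and 135 CPM in siControl, 123, 126 and 126 in siSLC25A1, 114, 113 and 119 in siACLY and 122, 122 and 123 in siACO1. The siACLY libraries were the 3 lowest of the 12. SRF fell by 0.19 in siACLY (SE 0.04, adjusted p = 0.000921), and its log2 fold change was -0.07 in siSLC25A1 (adjusted p = 0.252) and -0.10 in siACO1 (95% interval -0.19 to -0.02, adjusted p = 0.0566). The siACO1 difference passed without siACO1 replicate 3 (-0.11, adjusted p = 0.0373), without siControl replicate 2 and without siSLC25A1 replicate 1, over a range of 0.0125 to 0.325. Between knockdowns, SRF was higher in siSLC25A1 than in siACLY by 0.11 (adjusted p = 0.0422), a call lost in 7 of 19 alternatives, with an adjusted p from 0.0112 to 0.187.

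Compared between the knockdowns, the members did not share an order, EGR1, EGR3, NR4A1 and IER2 having their highest mean in siACO1 and the 4 KLF genes their lowest there. SRF had its lowest mean in siACLY. Of the 9 tested members, 4 were called in siSLC25A1 against siACLY (33.8% of all genes), 1 higher and 3 lower, where 17.5% and 16.3% of all genes were called in these directions. In siSLC25A1 against siACO1, 8 were called (42.1% of all genes), 4 higher and 4 lower, beside 21.8% and 20.3% of all genes. The 4 higher were KLF2, KLF4, KLF5 and KLF6, and the 4 lower were EGR1, EGR3, IER2 and NR4A1. In siACLY against siACO1, 7 were called (42.1% of all genes), 4 higher and 3 lower, beside 21.4% and 20.7%; the 4 higher were again the KLF genes, and the 3 lower were EGR1, IER2 and NR4A1. Without siACO1 replicate 3 the numbers called against siACO1 were also 8 and 7.

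Other immediate early genes were called in part in each knockdown. Of 40 tested genes of the list, 21 were called in siSLC25A1 (16 higher, 5 lower, 52.5% beside the 19.6% of all genes), 29 in siACLY (26 higher, 3 lower, 72.5% beside 36.7%) and 24 in siACO1 (15 higher, 9 lower, 60.0% beside 37.1%), with median log2 fold changes of 0.11, 0.32 and 0.06. The 24 in siACO1 stayed 24 in number without replicate 3. The 40 include EGR4, which passed the filter on low counts through the groups where it is high. FOS and FOSB, which pair with JUN proteins to form AP-1, had log2 fold changes in the same order as EGR1. In siSLC25A1, siACLY and siACO1 these were 0.70, 1.38 and 2.66 for FOS and 2.16, 3.30 and 4.40 for FOSB. In siSLC25A1 FOSB did not meet the rule for naming, which needs a call and a mean of 5 CPM in the higher group. JUN rose by 0.49, 0.54 and 0.15. HBEGF, a ligand of the EGF receptor, had another order, with means of 13.9 CPM in siControl, 41.4 in siSLC25A1, 50.6 in siACLY and 19.4 in siACO1 (log2 fold changes 1.57, 1.86 and 0.49, all called). DUSP5, a phosphatase that inactivates ERK in the nucleus, rose 2.83-fold in siSLC25A1, and CXCL8, the chemokine interleukin-8, by 1.13 on the log2 scale. RHOB, a small GTPase of endosomes, rose by 2.20 in siACLY, from 27.1 to 124 CPM, and fell by 0.58 in siACO1. ZFP36, which promotes decay of AU-rich transcripts, rose by 1.43 in siACO1, where its log2 fold change in siSLC25A1 was 0.05 and did not pass. DUSP6 and IER3 had at most 11 counts in a library and were not tested.

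**Figure D4:**
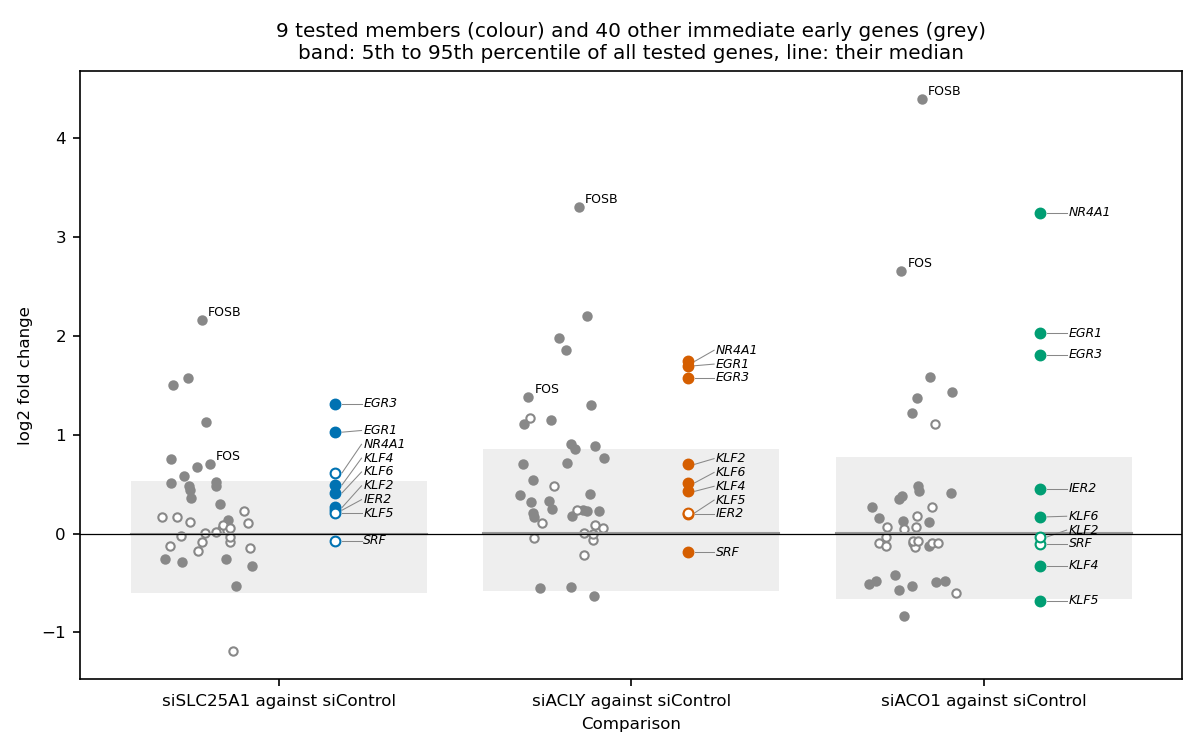
log2 fold change (y axis) against siControl in each knockdown (x axis) for the 9 tested members (coloured, named) and 40 other immediate early genes (grey, FOS and FOSB named); filled points have an adjusted p under 0.05, the band spans the 5th to 95th percentile of all tested genes and the grey line is their median. FOSB is the highest point of each column, and in siACO1 the points reach from -0.84 to 4.40.

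The cofactors and targets of SRF showed mixed directions. Of 6 tested SRF cofactors, 2 rose in siSLC25A1, 2 fell in siACLY, and 2 rose and 2 fell in siACO1. These are 33.3%, 33.3% and 66.7% of the list, beside 19.6%, 36.7% and 37.1% of all genes called. ELK3, an ETS-family cofactor, rose by 0.56 in siSLC25A1 and 0.25 in siACO1 and fell by 0.12 in siACLY. FHL2, a LIM-domain partner of SRF, rose by 0.42 in siSLC25A1 and fell by 0.48 in siACO1. MRTFA, the actin-sensing coactivator, rose by 0.27 in siACO1, and ELK4 fell by 0.21 in siACLY. Of 18 tested cytoskeletal targets of SRF and its MRTF coactivators, 6 rose and 2 fell in siSLC25A1, 10 rose and 3 fell in siACLY, and 8 rose and 5 fell in siACO1, with medians of 0.12, 0.14 and 0.16. The shares called were 44.4%, 72.2% and 72.2%, beside the same 19.6%, 36.7% and 37.1% of all genes. TGFB1I1, a focal adhesion adaptor, rose in each, by 0.69, 1.05 and 0.86. The smooth muscle protein TAGLN rose by 0.89 in siACLY and 0.47 in siACO1. FHL1, a LIM-domain protein, rose by 0.90 in siACLY and fell by 0.95 in siACO1. The tropomyosin TPM1 rose by 0.45 in siSLC25A1 and 0.39 in siACLY and fell by 0.47 in siACO1. The myosin light chain MYL9 had the opposite signs, falling by 0.22 and 0.28 in siSLC25A1 and siACLY and rising by 0.58 in siACO1.

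The corepressors of the EGR factors had smaller log2 fold changes than EGR1. NAB1 rose by 0.39 in siSLC25A1 and by 0.12 in siACO1, and NAB2 rose by 0.20 in siACLY. Of 12 other tested KLF and SP genes, edgeR called 0 in siSLC25A1 (3 had an unadjusted p under 0.05, and DESeq2 called 0), while 4 rose and 4 fell in siACLY and 7 fell in siACO1, with medians of 0.07, 0.03 and -0.22. The called shares in siSLC25A1, siACLY and siACO1 were 0%, 66.7% and 58.3%, beside 19.6%, 36.7% and 37.1% of all genes. In siACLY, KLF9, a factor induced by glucocorticoids and thyroid hormone, rose by 0.56 and KLF15 by 0.36, and SP1 fell by 0.40. In siACO1, KLF16 fell by 0.39, KLF11 by 0.37 and KLF3 by 0.29.

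Of 27 tested genes of the MAP kinase and CREB pathways, 5 rose and 3 fell in siSLC25A1, 4 rose and 9 fell in siACLY, and 3 rose and 7 fell in siACO1, and the medians lay near 0, at 0.04, -0.05 and -0.00010. The shares called were 29.6%, 48.1% and 37.0%, beside 19.6%, 36.7% and 37.1% of all genes, so that the siACO1 share was that of the background. MAP2K2, the kinase MEK2 that activates ERK, fell in each knockdown, by 0.31, 0.45 and 0.54, from a siControl mean of 578 CPM. MAPK3, which encodes ERK1, rose by 0.34 in siACO1. The ribosomal S6 kinase gene RPS6KA2 rose by 0.47 in siACLY and fell by 1.15 in siACO1, and RPS6KA5, the kinase MSK1 that phosphorylates CREB, rose by 0.79 in siACLY. MEF2A rose by 0.30 and NRAS by 0.28 in siSLC25A1.

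The genes with the most similar profile were sought for EGR1, KLF6 and SRF by the root mean square (RMS) difference of centred log2 CPM over the 12 libraries, among 9905 genes. The profile of KLF6 was closest to that of JUN, with an RMS difference of 0.047 where the median gene differed by 0.253, followed by STX12 (0.072) and UACA (0.073). For EGR1 the nearest were CAMK1G (0.285), GCH1 (0.286) and TMX4 (0.341), with a median of 0.81 over the genes. GCH1, which encodes the first enzyme of tetrahydrobiopterin synthesis, had log2 fold changes of 0.57, 1.37 and 1.38 in siSLC25A1, siACLY and siACO1. For SRF they were TRIM41 (0.029), CIZ1 (0.031) and CLASRP (0.039), with a median of 0.156. The nearest gene of EGR1 thus lay farther from it than JUN did from KLF6. EGR1 itself also varied more over the libraries, with an RMS of 0.786 around its mean beside 0.206 for KLF6, so these distances are not on a like scale.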

How the data were processed

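RNA-seq of poly(A) transcripts was deposited by the authors as 1 table of raw read counts per gene, whole numbers that were not normalized, with 1 column per library, per the file headers. The submitters' processing notes name CASAVA, FastQC, Trim Galore, STAR 2.7.0e and DESeq2 and the builds GRCm39 and GRCh38, with no roles; the annotation and the use of strand are not given in the sources used here. Symbols were matched to 62700 of 70116 identifiers (89.4%), and coordinates are those of GENCODE 29 (GRCh38).

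Counts of all 12 libraries, grouped by the labels, were filtered with filterByExpr (16197 genes left), scaled by TMM and fitted with the robust quasi-likelihood method of edgeR 4.0.16 under R 4.3.3, as 4 group means without a replicate block. The F tests, two-sided, were adjusted by Benjamini-Hochberg over all tested genes and called at 0.05; every adjusted p is from this fit unless stated. Levels are TMM-scaled CPM, which cannot show a change in total RNA. The 19 alternatives were 2 other scalings, 2 other filters, DESeq2 1.42.0, a replicate block, fits of the 2 groups compared, and leaving out each library.

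The members and the gene lists were chosen with earlier results of these data known. Named were the members, the siRNA targets, in each list and comparison with siControl the 3 called genes of largest change whose higher group had a mean of 5 CPM or more, and the 3 genes of most similar profile to EGR1, KLF6 and SRF. Overlap with other genes was checked for the members, with 20% of exon bases as the limit. Promoter sequences are RefSeq's, of GRCh38.p14, with chromosome 8 left out. EGR3 lies on that chromosome, so it has no window here and its motifs are not known from this search.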

Additional observations from a re-analysis of the deposited data

How the results depend on the processing

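Of 54 pairs of a tested member and a comparison, 45 kept their direction and their side of the threshold in all alternatives run; 2 lost a call and 3 gained one in at least 1 alternative, and 4 that were not called changed sign. EGR3 in siSLC25A1 against siACLY was among those that gained one, with library totals and without siSLC25A1 replicate 2. The number of members called ranged from 6 to 6 in siSLC25A1, 7 to 8 in siACLY and 6 to 8 in siACO1, and between knockdowns from 3 to 5, 7 to 8 and 6 to 7; that of other immediate early genes ranged over 18 to 23, 23 to 34 and 20 to 26.

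The sign changes were in values near 0, and the cause was not tested. With library totals, IER2 in siSLC25A1 against siACLY was -0.00084, SRF in siSLC25A1 against siACO1 -0.013, and KLF2 in siACO1 against siControl 0.015, the last ranging from -0.070 (without siControl replicate 2) to 0.0044 (without siControl replicate 1) as single libraries were left out. KLF5 in siSLC25A1 against siACLY was 0.0011 with median-of-ratios factors, 0.0034 with DESeq2, 0.0029 with the replicate block, 9.2e-05 without siControl replicate 3, 0.111 and 0.015 without siACLY replicates 1 and 2, and from -0.106 (without siACLY replicate 3) to 0.124 (without siSLC25A1 replicate 2) over the single libraries left out. Library totals also moved the share of higher calls among all called genes from 50.1% to 61.0% in siACLY, from 47.9% to 59.5% in siACO1, from 51.8% to 41.0% in siSLC25A1 against siACLY and from 51.8% to 42.2% in siSLC25A1 against siACO1.

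Same-numbered libraries of different groups had correlations of their deviations from -0.034 to 0.067 over 18 pairs. Libraries with different numbers had correlations from -0.072 to 0.071 over 36 pairs. Whether same-numbered libraries shared a culture or a day was not tested. With the replicate block 6, 8, 7, 5, 8 and 7 members were called, against 6, 8, 7, 4, 8 and 7. Low counts limit EGR2, which could be fitted only without a filter, and NR4A1, which had no value with at least 10 counts in every library. Why these counts were low was not tested.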
